A study of Rattus norvegicus with 241 samples.

Results

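Neutrophils carry their antimicrobial proteins in granules that are filled in order as the cell matures in the bone marrow. Primary (azurophil) granules, filled in promyelocytes, hold myeloperoxidase and neutrophil elastase, whereas specific granules, filled later, hold cathelicidin and lipocalin, and the calcium-binding S100A8 and S100A9 proteins accumulate in the cytosol. Mature neutrophils keep little of the primary granule mRNA, so the transcripts that remain in a tissue sort depend on the stage of the cells as well as on their number. The genes described here are 8 of the 15924 genes listed in the tables of sorted CD45+ cells from rat mammary gland and mammary tumor. They are Ngp, Camp and Lcn2 (specific granule proteins), Retnlg (a secreted resistin-like protein made by neutrophils), S100a8 and S100a9 (cytosolic), and Mpo and Elane (primary granule proteins), written below as NGP, CAMP, LCN2, RETNLG, S100A8, S100A9, MPO and ELANE. They were chosen by their normalized counts in young ACI rats at day 0, as neutrophil genes, after a difference between treated and vehicle young ACI rats at day 0 was known, so that comparison and the others with day 0 of those rats are described and not tested.

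The study asked how a short course of a TGFβ receptor inhibitor (TGFBRi, LY22157299 in the labels, 75 mg/kg by oral gavage in repeated daily doses) changes the rat mammary gland and its later tumor risk. Leukocytes were sorted with antibody to CD45 from gland suspensions also stained for CD24, CD29 and CD31, and from tumor suspensions stained, by the study's methods, for EPCAM besides CD45, and 74 CD45 libraries of 241 samples were sequenced in bulk. Of these, 68 came from the glands of 65 rats in 20 groups and 6 from tumors, and 1 rat (A4-15) was sequenced as 4 libraries that were averaged. Treatment lasted 10 days everywhere except in the estradiol experiment, where it lasted 21 days.

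Young virgin ACI rats were treated from the age of 35 days and collected 0, 7 or 14 days after the last dose, with 3 vehicle and 3 TGFBRi rats at each day. Young virgin SD rats, an outbred strain, were treated from 24 days and collected at day 0, with 4 rats per arm. Of the treated ones, D7N and D7R carry the label of weak and D8N and D8R that of strong responders, on grounds not given in the sources used here. Adult ACI rats were collected at day 0 as 4 virgin vehicle, 3 virgin TGFBRi, 2 parous vehicle and 4 parous TGFBRi rats. Further SD rats, treated from 21 days, all received the carcinogen NMU (N-nitroso-N-methylurea, 50 mg/kg) and were collected on day 87, as 3 vehicle rats that bore tumors and 6 TGFBRi rats, of which 3 bore tumors and 3 did not. CD45+ cells of the tumors of the 6 tumor-bearing rats were sorted too. In the estradiol experiment, ACI rats treated from 38 days received either no estradiol, by the study's methods as an empty implant (4 vehicle, 3 TGFBRi, all tumor-free), or a 37 mg estradiol (E2) pellet. The E2 rats were 4 vehicle rats, all of which bore tumors, and 6 TGFBRi rats, of which 4 stayed tumor-free and 2 bore tumors, so that in the vehicle arm estradiol and the presence of tumors cannot be told apart. By the study's methods, rats of the estradiol experiment were collected at its end, months after the last dose.

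Depth was 7006141 to 40042138 reads on genes per CD45 library, with a median of 21924922. A value of 0 in these libraries allows up to 0.0749 to 0.428 CPM (reads scaled to a common library total), the worth of 3 reads. Intervals and limits of this kind cover counting error only. The sorts held other cells: the summed CPM of the leukocyte gate list of 3 genes, among them PTPRC (CD45), ran from 513 to 6445 in gland sorts, and that of 5 luminal epithelial genes, such as KRT8, from 26.2 to 6631. Fewer neutrophils and less RNA per neutrophil cannot be told apart in bulk sorts. Rat A4-14, a tumor-bearing TGFBRi rat with E2, was the highest of all 65 gland rats for S100A8 (1112 CPM), S100A9 (2727 CPM), RETNLG (118 CPM) and ELANE (5.81 CPM). The limma differences of NGP, S100A8, S100A9 and CAMP in its group are also given without it. The DESeq2 fits and the correlations include it. The libraries of rat A4-15 show the spread within 1 animal, with S100A9 between 526.3 and 2299 normalized counts and CAMP between 5.18 and 50.8 over its 4 libraries.

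Start-site sequences are shown for NGP, S100A9 and CAMP, whose values stood apart between the arms in young ACI rats at day 0, and for LCN2, whose values did not. RefSeq sequences of build GRCr8 were given for 6 of the 8 genes. Each runs from 250 bases before to 50 bases after the start of the gene, 5′ to 3′ on the strand of the gene. Capitals mark letters that match TTNCNNAA (C/EBP, loose consensus), GAGGAAG (PU.1) or the promoter element TATAAA, each searched on both strands.
NGP, chr8:119272355-119272654, plus strand: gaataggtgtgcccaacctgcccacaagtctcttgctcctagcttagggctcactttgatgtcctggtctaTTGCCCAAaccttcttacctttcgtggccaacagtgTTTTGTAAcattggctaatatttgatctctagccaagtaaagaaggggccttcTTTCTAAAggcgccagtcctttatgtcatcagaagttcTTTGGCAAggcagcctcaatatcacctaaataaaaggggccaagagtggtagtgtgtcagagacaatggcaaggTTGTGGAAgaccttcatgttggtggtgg
S100A9, chr2:178490573-178490872, minus strand: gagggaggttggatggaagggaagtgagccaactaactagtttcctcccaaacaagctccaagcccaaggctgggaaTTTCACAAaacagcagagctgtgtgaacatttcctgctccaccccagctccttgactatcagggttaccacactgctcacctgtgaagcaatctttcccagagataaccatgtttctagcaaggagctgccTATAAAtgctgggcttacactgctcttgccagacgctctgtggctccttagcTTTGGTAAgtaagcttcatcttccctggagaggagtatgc
CAMP, chr8:118721949-118722248, minus strand: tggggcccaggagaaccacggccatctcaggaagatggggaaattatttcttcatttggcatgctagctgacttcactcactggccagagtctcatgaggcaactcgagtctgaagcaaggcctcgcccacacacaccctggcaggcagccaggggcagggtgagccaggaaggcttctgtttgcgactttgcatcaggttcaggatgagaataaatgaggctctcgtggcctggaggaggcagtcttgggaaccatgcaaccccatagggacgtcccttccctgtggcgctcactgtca
LCN2, chr3:36081731-36082030, minus strand: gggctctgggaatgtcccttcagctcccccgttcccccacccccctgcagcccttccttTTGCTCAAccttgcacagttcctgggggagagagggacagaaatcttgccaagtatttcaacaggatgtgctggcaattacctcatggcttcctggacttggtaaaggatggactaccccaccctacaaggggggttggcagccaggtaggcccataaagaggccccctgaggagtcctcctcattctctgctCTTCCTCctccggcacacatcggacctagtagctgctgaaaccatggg
C/EBP factors and PU.1 drive granulocyte genes during maturation. The C/EBP letters were in 4 of the 6 sequences (5 copies in NGP, 2 in S100A9, 1 each in LCN2 and MPO), against 41.3% of 33469 RefSeq start-site windows of the same length. The PU.1 letters were in LCN2 and MPO (12.4% of all windows), and the TATAAA letters in S100A9 (14.2% of all windows). Letters of the repressor GFI1 (AAATCA) were in none of the 6, against 14.5% of all windows. CAMP and RETNLG held no copy of any of the 4 motifs. A match of letters is a description of the sequence and not evidence of binding.

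Over the 65 gland rats, S100A9 ran from 1.58 to 2727 CPM with a median of 31.9, and S100A8 from 0.307 to 1112 CPM with a median of 7.62. Neither was at 0 in any rat. CAMP was at 0 in 5 rats and reached 55.01 CPM, and NGP was at 0 in 26 rats and reached 221 CPM in the young ACI rat LD7R. RETNLG was at 0 in 1 rat. The primary granule genes were low throughout, with MPO at 0 in 21 of the 48 rats of the tables that list it (maximum 5.66 CPM) and ELANE at 0 in 23 of 65. MPO was not analysed in the E2 CD45 sorts. LCN2 differed from the others in where it was high: its range in CD45 sorts was 124 to 907 CPM in young SD rats, against 0.511 to 8.00 CPM in young ACI rats.

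**Figure D1:**
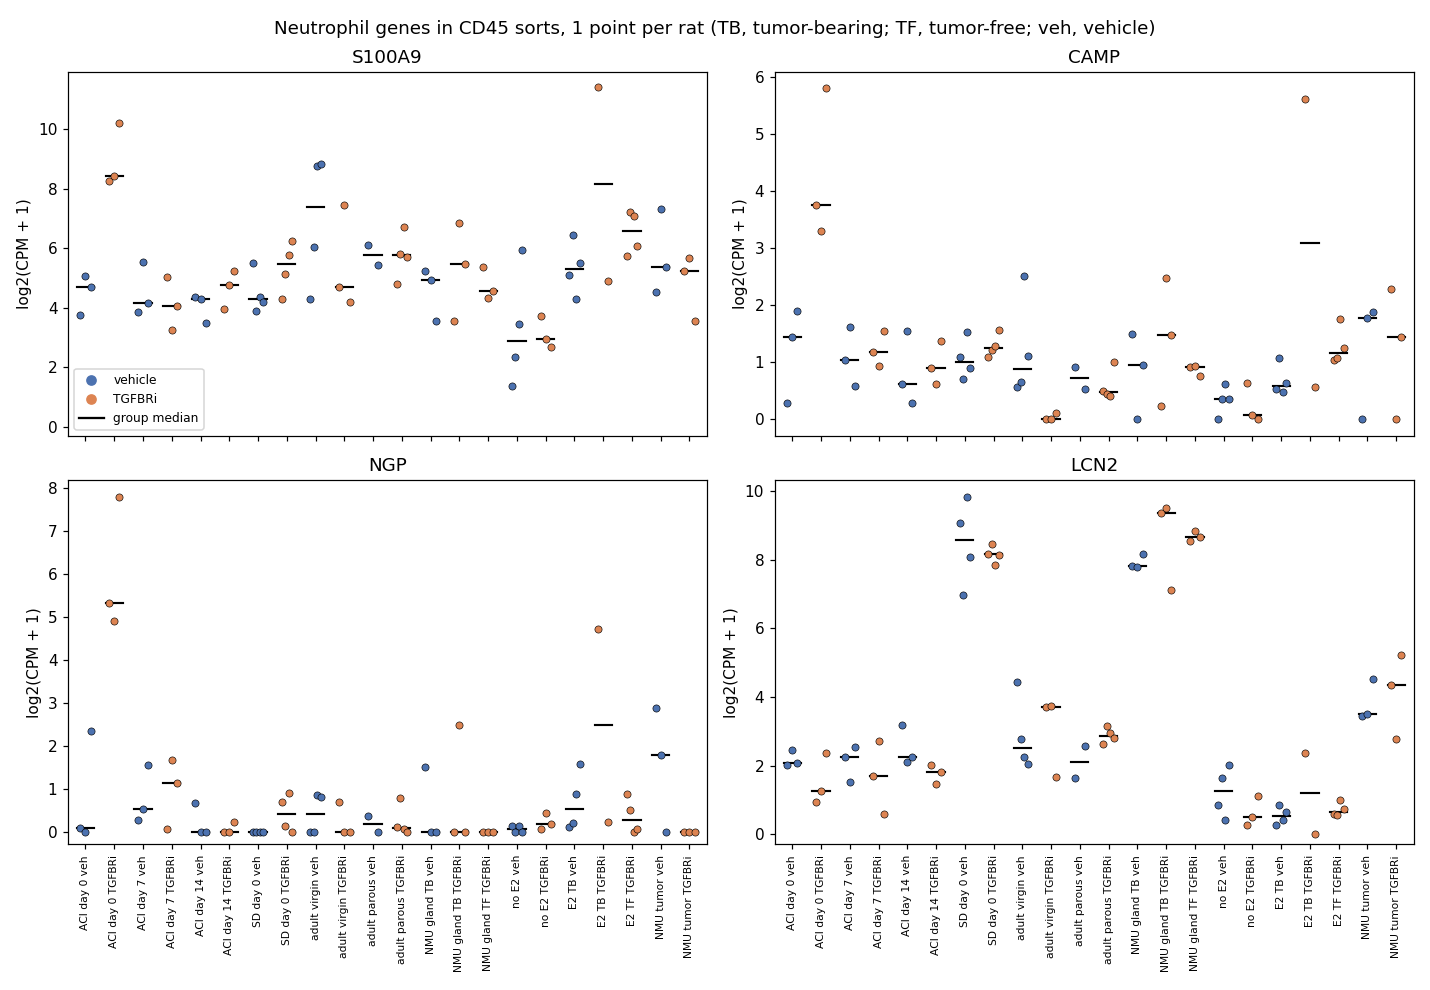
S100A9, CAMP, NGP and LCN2 in CD45 sorts, as log2(CPM + 1), with 1 point per rat, vehicle and TGFBRi groups in separate colours and group medians as bars. S100A9, CAMP and NGP are high in the 3 TGFBRi young ACI rats at day 0 and in 1 E2 tumor-bearing TGFBRi rat, S100A9 also in 2 adult virgin vehicle rats (434 and 456 CPM), whereas LCN2 is high in the SD gland groups.

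In young ACI rats at day 0, 5 of the 8 genes were higher in every TGFBRi rat than in every vehicle rat. The same was so for 7.71% of the 14761 genes tested, and 2.85% of all genes passed the test in this comparison. Nothing is read from these counts, since the genes were chosen with this difference known. NGP was 1.23, 0 and 94.3 normalized counts in the vehicle rats LD3L, LD3R and LD4R. In the TGFBRi rats LD10R, LD7L and LD7R it was 797, 603 and 5350. RETNLG was 12.3, 19.9 and 4.34 in vehicle rats and 194, 432 and 1212 in TGFBRi rats. LD7R had the highest value of the 3 TGFBRi rats for each of these genes.

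S100A9, a subunit of the calprotectin heterodimer, was 291, 950 and 585 normalized counts in vehicle rats and 6187, 7093 and 28616 in TGFBRi rats in the same order. Its partner S100A8 was 69.1, 165 and 160 against 1659, 1494 and 6401. CAMP, the cathelicidin precursor, was 4.94, 50.2 and 63.96 against 258, 184 and 1331. Every one of these groups stood apart from the other without overlap. LCN2 did not share the pattern, with 70.3, 130 and 75.9 normalized counts in vehicle rats and 18.8, 28.97 and 99.3 in TGFBRi rats. The primary granule genes stayed low in both arms: MPO was at most 13.6 in any of the 6 rats and ELANE at most 12.1.

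Other gene groups differed along with them at day 0. Among 7 other specific and gelatinase granule genes, such as MMP8 and CD177, the summed CPM was 88.9 to 341 in TGFBRi rats and 22.8 to 26.5 in vehicle rats. Of 4 other primary granule genes 1 had a positive log2 difference, while their sum was 155 to 248 against 52.6 to 110 CPM. The neutrophil receptor and surface genes, 9 in the table, did not separate, at 520 to 792 against 411 to 751 CPM. Erythroid genes were 12.5 to 54.9 CPM in TGFBRi rats and 0.139 to 3.55 in vehicle rats. Fibroblast genes were 878 to 7128 CPM in TGFBRi rats and 12421 to 32035 in vehicle rats, and basal epithelial genes 4.13 to 6.57 against 110 to 340 CPM. The leukocyte gate genes were at 3837 to 4437 against 3680 to 4312 CPM. The part of these other cell types in the difference of the neutrophil genes was not tested.

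**Figure D2:**
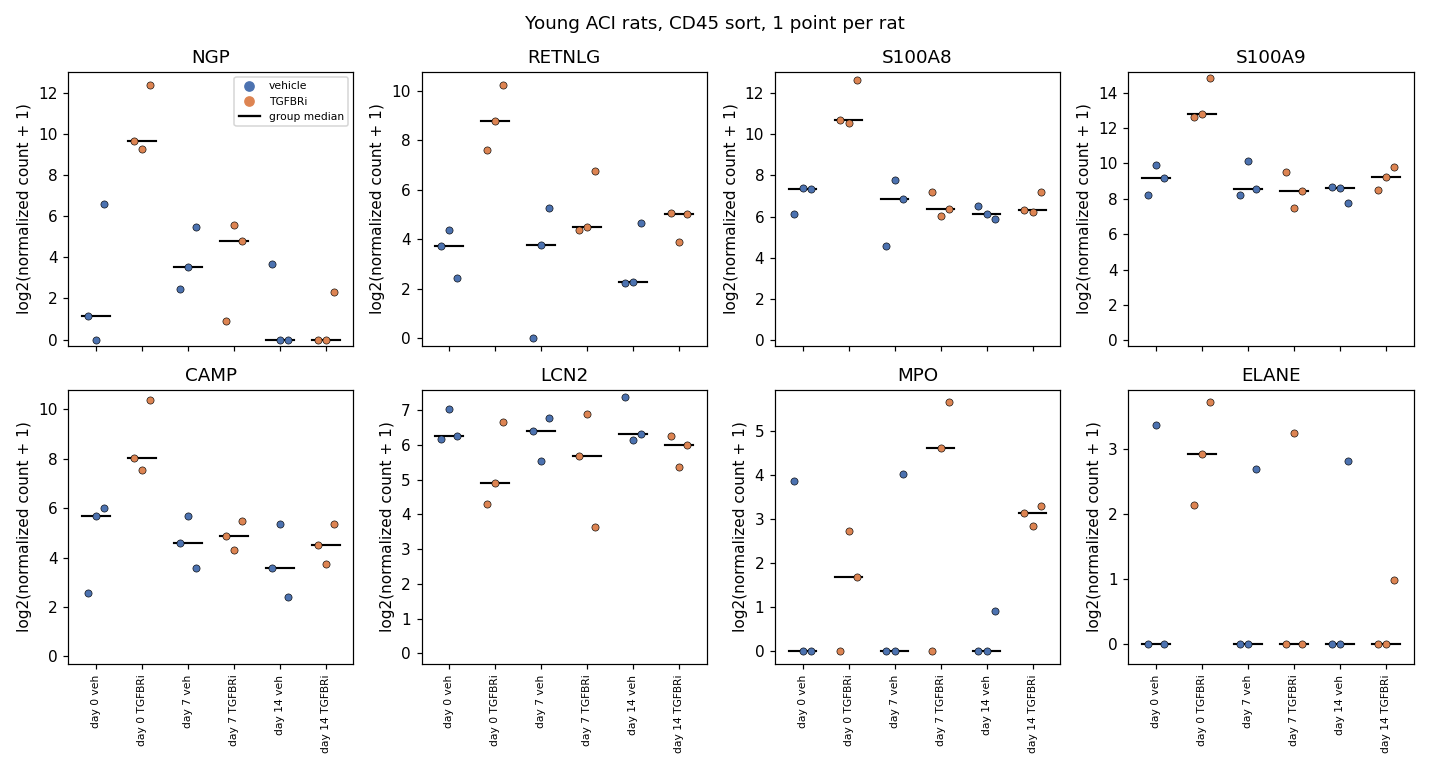
All 8 genes in CD45 sorts of young ACI rats by day and treatment, as log2(normalized count + 1), with 1 point per rat and group medians as bars. The separation of the arms for NGP, RETNLG, S100A8, S100A9 and CAMP at day 0 is not seen at day 7 or day 14, where the points of the arms overlap for these 5 genes.

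At day 7 the arms overlapped for all 8 genes, and at day 14 for all but MPO. S100A9 was 181 to 718 normalized counts in TGFBRi rats at day 7, against 301 to 1111 in vehicle rats, and 367 to 902 at day 14, against 214 to 404. NGP was at most 45.9 in TGFBRi rats at day 7 and at most 3.96 at day 14. No member passed the test at day 7 (log2 differences of −0.83 to 2.19) or day 14 (−0.75 to 2.79), by limma with Benjamini-Hochberg adjustment over all genes (adjusted p 0.90 or more), and 0% of all genes passed it on either day. The standard errors were 0.65 to 1.67. MPO was the only member without overlap at day 14, with 6.13 to 8.91 normalized counts in TGFBRi rats and 0 to 0.865 in vehicle rats, as for 8.26% of all genes. No member passed between day 14 and day 7 in either arm (adjusted p 0.62 or more, with 0.0474% of all genes passing in vehicle rats and 0% in TGFBRi rats).

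In young SD rats, also at day 0, no member passed the test. S100A9 was 192, 271, 299 and 694 normalized counts in the 4 vehicle rats and 250, 476, 782 and 1047 in the 4 TGFBRi rats, and the arms overlapped. The log2 difference was 0.79 ± 0.52 (adjusted p = 0.87), where ± gives the standard error here and below. CAMP was 8.57 to 28.7 in vehicle and 15.0 to 27.4 in TGFBRi rats. NGP was at 0 in all 4 vehicle rats and at 0, 1.39, 8.27 and 12.4 in TGFBRi rats, values near the limit of detection. None of the 13779 genes passed the test (0%). The strong responders D8N and D8R had the highest S100A9 of the 8 rats (782 and 1047), against 250 and 476 in the weak responders D7N and D7R. MPO was 53.6 and 79.4 in strong and 0 and 11.1 in weak responders, with vehicle rats at 0 to 46.4. In a fit with the labelled responders apart, added after the data were seen, S100A9 differed from vehicle by 1.49 ± 0.57 in strong (adjusted p = 1.00) and 0.098 ± 0.57 in weak responders (adjusted p = 1.00). Strong and weak responders, 2 rats each, differed by 1.39 ± 0.66 for S100A9 and 4.25 ± 1.97 for MPO (adjusted p = 1.00 for both), and 0% of all genes passed in any of these 3 comparisons. Whether the treatment effect differed between the strains was not tested, since the tables were normalized separately and strain, age and experiment change together.

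In adult virgin ACI rats at day 0, S100A9, S100A8 and CAMP had lower fitted means in TGFBRi than in vehicle rats, and no member passed the limma test. S100A9 was 470, 1438, 12409 and 11754 normalized counts in the vehicle rats C_N1N, C_N1R, C_N2N and C_N2R, and 636, 5870 and 406 in the TGFBRi rats D_N1N, D_N1R and D_N2R. The high vehicle values came from C_N2N and C_N2R, which also had the highest S100A8 (2341 and 2826), and MMP8 of 47.4 CPM or more, against 1.89 and 7.11 CPM in the other vehicle rats. CAMP was 11.8, 12.7, 135 and 29.5 in vehicle rats and 0, 0 and 1.78 in TGFBRi rats, without overlap, as for 2.41% of all genes in this direction. The log2 difference of CAMP was −4.38 ± 0.94 and did not pass the adjustment over all genes (adjusted p = 0.34, with 0.022% of genes passing). That of S100A8 was −2.24 ± 0.85 (adjusted p = 0.85). The size for CAMP depended on the method, at −1.21 in limma with reads scaled by TMM and −6.05 with DESeq2. The TMM fit was on log2(CPM + 1), so 1 was added to values of at most 4.73 CPM. In the reported fit 1 was added to values of at most 135 normalized counts. DESeq2 called CAMP and S100A8 as lower (adjusted p = 0.018 and 0.034) and MPO as higher (adjusted p = 0.048), with 0.485% of all genes called, whereas edgeR called none of them (adjusted p = 0.87 for each). MPO was at 0 in all 4 vehicle rats, and in the TGFBRi rats it ran from 0 to 181 normalized counts with a median of 4.45. The epithelial marker KRT8 was 376 to 2690 CPM in the vehicle and 175 to 325 CPM in the TGFBRi sorts, also without overlap, while the summed luminal genes overlapped at 960 to 6631 against 705 to 962 CPM, and the leukocyte gate genes at 1957 to 4025 against 2124 to 4542 CPM. The part of these cells in the values of CAMP was not tested.

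No member passed the test of parity. Between parous and virgin vehicle rats, 7 of the 8 members had negative log2 differences, with a median of −0.82 over the members, and S100A9 differed by −1.23 ± 1.297 and CAMP by −0.81 ± 1.07 (adjusted p = 1.00 for both, 0% of genes passing). Between parous and virgin TGFBRi rats, 6 of the 8 had positive ones, with a median of 0.33. Over all genes the median was −0.00096 in the vehicle and 0.17 in the TGFBRi comparison. Standard errors of the members were 0.88 to 1.74 and 0.78 to 1.54. In parous rats S100A9 was 1905 and 942 normalized counts with vehicle and 594, 1228, 2342 and 1342 with TGFBRi, and the log2 difference between these arms was −0.12 ± 1.297 (adjusted p = 1.00). CAMP was higher in all 4 parous TGFBRi rats (7.23 to 26.2) than in the 3 virgin TGFBRi rats (0 to 1.78), without overlap, as for 2.89% of all genes. The log2 difference was 3.09 ± 0.94 and did not pass the adjustment (adjusted p = 0.89, with 0% of all genes passing). The treatment effect on CAMP differed between parous and virgin rats by 3.90 ± 1.42, which did not pass either (adjusted p = 0.99). LCN2 was 115 to 177 in parous TGFBRi rats and 58.9 and 110 in parous vehicle rats, without overlap, as for 4.5% of all genes. With 2 parous vehicle rats, these tests borrow their spread from the other adult groups.

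S100A8 and S100A9 had higher medians in the CD45 sorts of ACI rats with E2 than in those without it, in both arms, but no member passed the adjusted test over all genes. In TGFBRi rats, S100A9 was 279, 146 and 128 normalized counts without E2 (A4-10, A4-20 and A4-40) and 1336, 3370, 3575 and 1604 with E2 in the tumor-free rats A4-15, A4-16, A4-24 and A4-4. The groups did not overlap. S100A8 was 89.9, 30.2 and 39.5 without E2 and 388, 1043, 990 and 510 with E2. CAMP was 12.4, 1.08 and 0 without E2 and 26.7, 25.4, 63.6 and 33.5 with E2. ELANE was at 0 in all 3 rats without E2 and 5.72 to 10.5 with E2, values of a few reads, so no fold is given for it.

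The log2 differences were 3.70 ± 1.26 for S100A9 (adjusted p = 0.095), 3.79 ± 1.35 for S100A8 (adjusted p = 0.11) and 3.56 ± 1.25 for CAMP (adjusted p = 0.10), and the adjusted p of ELANE was 0.056. All 4 of these genes stood apart without overlap in 7 members tested, as did 12.4% of all genes in this direction, and 5.52% of all genes passed the test. When the fit held the groups compared alone, without the vehicle rats and the E2 tumor-bearing rats, these 4 genes passed (S100A9 with an SE of 0.39 and adjusted p = 0.000796), as did 9.02% of the genes tested there. NGP (0.12 ± 1.41) and RETNLG (−1.31 ± 0.94) did not pass. RETNLG was 160 to 233 normalized counts without E2 and 18.0 to 306 with E2.

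Genes of the other neutrophil lists were tested in the same comparison, where 4.23% of all genes passed as higher. Of 8 receptor and surface genes tested, 2 rose, CXCR2, the receptor for neutrophil-attracting chemokines (3.53 ± 0.97, adjusted p = 0.042), and CSF3R, the G-CSF receptor (3.15 ± 0.80, adjusted p = 0.032). Among 5 granulocyte regulators GFI1 rose (1.54 ± 0.40, adjusted p = 0.034). In a list of 6 neutrophil attractant and cytokine genes, the cytokine IL1B rose (2.90 ± 0.78, adjusted p = 0.041). None of 7 other specific and gelatinase granule genes passed, with a median log2 difference of 1.79 against −0.03 for all genes. The NK cell genes NCR1, KLRD1 and NKG7 also rose (3 of 4 tested, 2.47, 2.17 and 1.57). Summed luminal epithelial genes were 121 to 468 CPM without E2 and 66.9 to 163 with E2, and their part in the result was not tested.

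In vehicle rats the E2 rats all bore tumors. S100A9 was 33.2, 96.04, 224 and 1406 normalized counts without E2 (A4-18, A4-28, A4-38 and A4-8) and 813, 2092, 432 and 940 with E2 (A4-1, A4-27, A4-3 and A4-37). Rat A4-8 lay within the range of the E2 rats, and the groups overlapped for all 7 members. The log2 difference was 2.34 ± 1.16 for S100A9 (adjusted p = 0.44) and 2.75 ± 1.25 for S100A8 (adjusted p = 0.40), with 0.316% of all genes passing. Whether the difference with E2 was larger in TGFBRi than in vehicle rats was not tested. In the same comparison KRT8 and KRT19 fell (by 2.81 and 2.70 on the log2 scale), and summed luminal genes were 298 to 373 CPM without E2 and 37.4 to 87.7 with E2.

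**Figure D3:**
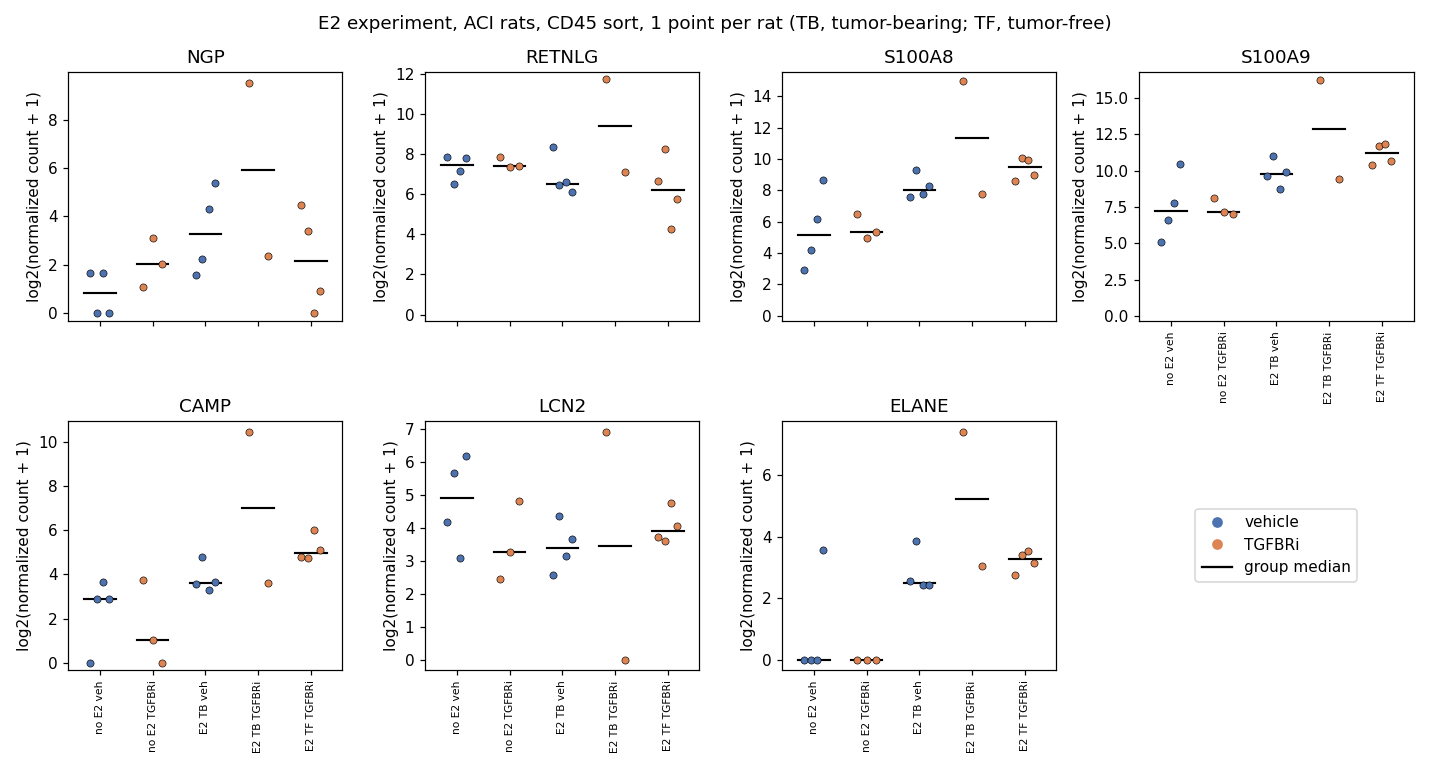
The 7 members listed in the estradiol experiment, as log2(normalized count + 1) in CD45 sorts, with 1 point per rat and group medians as bars. S100A8, S100A9, CAMP and ELANE are higher in the 4 tumor-free TGFBRi rats with E2 than in the 3 TGFBRi rats without it, and rat A4-14 is the highest point of the tumor-bearing TGFBRi group in every panel.

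No member passed the test of treatment within this experiment. Without E2, S100A9 differed by −0.05 ± 1.26 on the log2 scale between TGFBRi and vehicle rats (adjusted p = 1.00), with 0% of all genes passing. With E2, tumor-free TGFBRi rats had S100A9 higher than tumor-bearing vehicle rats by 1.305 ± 1.16 (adjusted p = 0.88, 0% of genes passing). Treatment and tumor status change together in that comparison and cannot be told apart. The 2 tumor-bearing TGFBRi rats disagreed with each other, with S100A9 at 77148 in A4-14 and 703 in A4-9, S100A8 at 31471 and 212, CAMP at 1360 and 11.3, and NGP at 721 and 4.12. Their difference from tumor-bearing vehicle rats was 3.01 ± 1.42 for S100A9 (adjusted p = 0.60, with 0.022% of genes passing). Without A4-14 it was −0.37 ± 1.29. With A4-14 included, DESeq2 called CAMP as higher (adjusted p = 0.044, with 0.154% of genes called), and DESeq2 was not run without this rat. Without A4-9, leaving A4-14 as the lone rat of its group, all 7 members passed, as did 13% of all genes. MMP8 was 149 CPM in A4-14 and 0.595 in A4-9, CXCR2 22.4 and 1.97, and KRT8 5.61 and 2.83.

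In glands of NMU-treated SD rats no member passed the test of treatment or tumor status. S100A9 was 520, 455 and 147 normalized counts in the tumor-bearing vehicle rats C2N, C2R and C5R, 149, 1744 and 597 in the tumor-bearing TGFBRi rats D2N, D3R and D4R, and 670, 271 and 322 in the tumor-free TGFBRi rats D1N, D1R and D2R. D3R was the highest for S100A8, S100A9, CAMP and NGP, and the 3 groups overlapped. Between the tumor-bearing arms the log2 difference of S100A9 was 0.72 ± 0.77 (adjusted p = 0.88, 0.015% of genes passing). The other members had adjusted p of 0.79 or more in the 3 comparisons of these glands. LCN2 was 5775 to 6587 in tumor-free TGFBRi rats and 3203 to 3964 in tumor-bearing vehicle rats, without overlap, as for 3.9% of all genes, and its log2 difference was 0.83 ± 0.52 (adjusted p = 1.00). KRT8 also stood apart in these sorts, at 1151 to 1659 against 790 to 1081 CPM, and LCN2 as a percent of KRT8 overlapped (27.7 to 32.5 against 21.9 to 28.6). The part of epithelial cells in this difference was not tested.

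LCN2, a protein that binds bacterial siderophores and is made by mammary epithelium as well as by neutrophils, was the member that changed between gland and tumor. In the vehicle rats C2N, C2R and C5R it fell from 3203, 3360 and 3964 normalized counts in gland CD45 sorts to 135, 105.99 and 219 in CD45 sorts of their tumors. In the TGFBRi rats D2N, D3R and D4R it was 9012, 11189 and 1907 in gland and 218, 61.2 and 357 in tumor. All 6 rats were lower in tumor. The tables were normalized separately, so the test used reads scaled together. The antibody panel of the sort also differed between gland and tumor, so tissue and sort cannot be told apart here. The log2 differences were −4.13 ± 0.65 (adjusted p = 0.0011) in vehicle and −4.61 ± 0.65 (adjusted p = 0.00032) in TGFBRi rats, where 11.1% and 25.1% of all genes passed, and 7.47% and 15.2% passed as lower in tumor. With the rat as a block the adjusted p was 0.0033 and 0.00099.

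The other 7 members did not pass. This fit was on log2(CPM + 1), which damps differences of low genes. NGP, CAMP, RETNLG, MPO and ELANE had medians of at most 3.43 CPM in each of the 4 groups compared. S100A8 differed by 1.72 ± 0.79 in vehicle rats (adjusted p = 0.18) and 0.57 ± 0.79 in TGFBRi rats (adjusted p = 0.65), and S100A9 by 1.15 ± 0.84 and −0.52 ± 0.84. Epithelial genes fell along with LCN2. In vehicle rats KRT8 fell by 4.40 and EPCAM fell by 3.26 on the log2 scale, in TGFBRi rats KRT8 fell by 5.37 and EPCAM fell by 3.69, and all 5 luminal genes fell in both. Over the gland sorts of all NMU rats, tumor-free ones included, the summed luminal genes were 1354 to 6098 CPM, against 78.6 to 434 in the tumor sorts. Leukocyte gate genes were 513 to 2999 CPM in the same gland sorts and 2656 to 5206 in tumor. The neutrophil attractant CXCL1 fell in both arms (log2 −4.03 in vehicle and −4.05 in TGFBRi rats), as did CSF3 (−3.70 and −4.52). The part of epithelial cells in the fall of LCN2 was not tested. Within the tumors, no member passed between TGFBRi and vehicle rats (adjusted p 0.75 or more, 0% of all genes passing), and LCN2 differed by 0.20 ± 0.81.

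**Figure D4:**
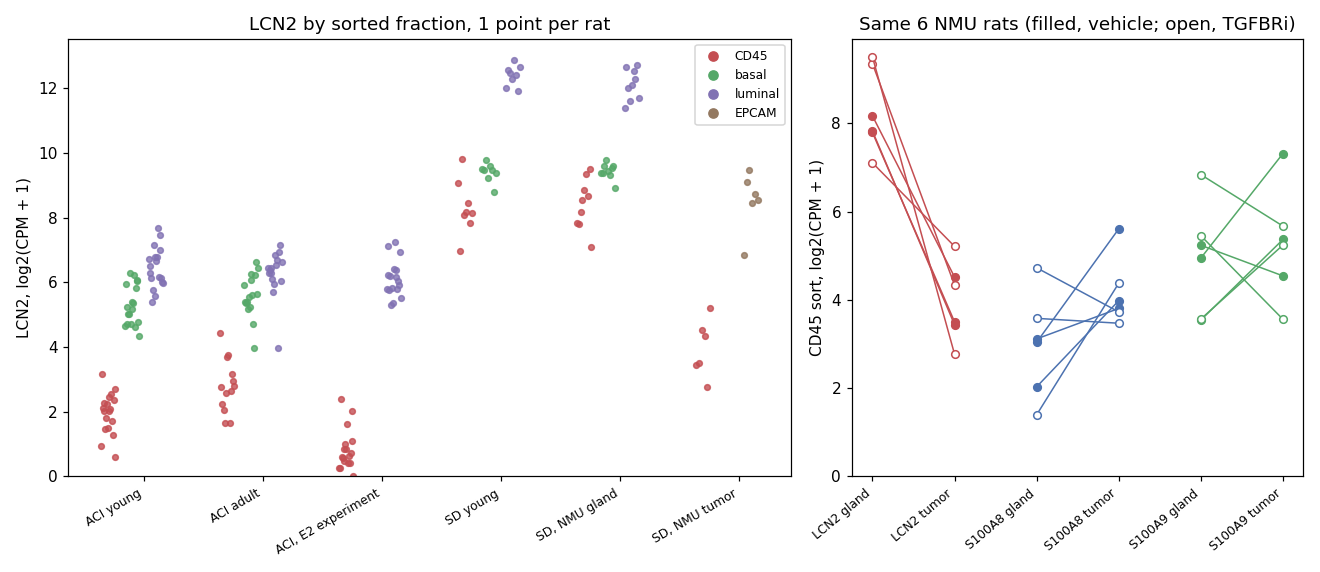
LCN2 in the sorted fractions of each experiment and in gland and tumor CD45 sorts of the same 6 NMU rats, in CPM on log scales, with 1 point per rat. LCN2 is highest in the luminal sorts of SD rats, and it is lower in the tumor than in the gland CD45 sort of every one of the 6 rats.

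LCN2 had the highest median of the members in each sorted epithelial fraction. In young SD rats it was 3875 to 7552 CPM in luminal sorts and 441 to 885 CPM in basal sorts, and in glands of NMU rats 2690 to 6690 and 481 to 883 CPM. In young ACI rats it was 40.9 to 206 CPM in luminal and 19.5 to 76.6 CPM in basal sorts, and in EPCAM sorts of NMU tumors 113 to 709 CPM. The values of the strains came from separate experiments and tables and were not tested against each other. S100A8 and S100A9 reached 32.2 and 14.2 CPM in luminal sorts of young SD rats. The medians of S100A8 there were 16.8 CPM in luminal and 10.1 CPM in CD45 sorts, and in NMU glands 6.85 and 5.92 CPM. Those of S100A9 were 5.66 and 27.1 CPM in young SD rats and 3.15 and 29.9 CPM in NMU glands. The part of epithelial cells in S100A8 of the SD CD45 sorts was not tested. NGP, RETNLG, MPO and ELANE had medians under 0.2 CPM in basal and luminal sorts of young rats of both strains. In EPCAM sorts of NMU tumors the medians were 2.34 CPM for NGP, 0.132 for RETNLG, 0.824 for MPO and 0.753 for ELANE. In CD45 sorts of the tumors they were 0, 1.51, 0.233 and 0 CPM. S100A9 had medians of 26.8 CPM in EPCAM and 38.6 CPM in CD45 sorts of the tumors.

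In single cells of whole glands of young SD rats (9 libraries, 3 vehicle and 6 TGFBRi, of 7900 to 16424 cells), LCN2 was detected mainly in epithelial cells. It had a UMI in 63.5 to 78.002% of cells with keratin UMIs and no PTPRC UMI, against 2.33 to 5.81% of cells with a PTPRC UMI and no keratin UMI, at median depths of 5508 to 9905 and 2358 to 3824 UMIs. The other members were seldom detected: S100A9 had a UMI in 0.0326 to 0.371% of the PTPRC cells and in 0.0573 to 0.266% of the keratin cells, ranges that overlap at unequal depths, with no share of free RNA measured. S100A8 was found in fewer PTPRC cells (0.0629 to 0.679%) than keratin cells (0.798 to 2.13%), and the keratin cells were deeper. RETNLG had a UMI in 0.0251 to 0.124% of the PTPRC cells and in 0 of the 1746 to 5612 keratin cells of each library, which allows a share of cells with a UMI of up to 0.0535 to 0.172% within any of these libraries. It was above 0 in the PTPRC cells and at 0 in the deeper keratin cells in all 9 libraries, but this limit overlaps the PTPRC share. NGP had a UMI in 0 to 0.0618% of PTPRC and 0 to 0.134% of keratin cells, and MPO in 0 to 0.0750% and 0 to 0.172%. CAMP had a UMI in 0.157 to 1.42% of PTPRC and 0.0941 to 0.447% of keratin cells, and ELANE in 0 to 0.0652% and 0 to 0.0406%. A UMI of at least 4 of the 7 members other than LCN2 was found in 13 of 103524 cells, 0 to 5 per library, of which 10 had a PTPRC UMI and 0 met the keratin gate. These numbers are too small to compare the arms. At most 2.51% of the barcodes of the smaller library were shared between any pair of these libraries. The sorted single-cell tables were filtered by the authors for keratin reads and against Ptprc, and 51.2 to 99.9% of their cells per library in SD rats and 90.4 to 99.8% in ACI rats met the keratin gate used here. LCN2 had a UMI in 22.2 to 45.3% of their cells in ACI rats and 42.3 to 87.4% in SD rats.

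Across the 65 gland rats, S100A8, S100A9 and CAMP had the highest correlations after each experiment was centred, with Spearman's rho of 0.92 for S100A8 with S100A9, 0.75 for S100A8 with CAMP and 0.70 for S100A9 with CAMP. Within the experiments the rho of S100A8 with S100A9 was 0.77 to 0.99. That of S100A9 with CAMP was 0.42 to 0.87. For NGP with CAMP it was 0.50 over all rats and 0.082 to 0.73 within the experiments. LCN2 had rho between −0.17 and 0.17 with the other members. Its rho was 0.43 with the summed luminal genes and −0.39 with PTPRC, whereas that of S100A9 with the luminal genes was −0.39. MPO, over 48 rats, had a rho of 0.36 with ELANE and between −0.06 and 0.25 with the rest. These points share libraries and depths, and the groups of the study contribute to them. They include the 6 young ACI rats of day 0, whose values were used to choose the genes. Without those rats (59 left), rho was 0.90 for S100A8 with S100A9, 0.67 for S100A8 with CAMP, 0.61 for S100A9 with CAMP, 0.30 for NGP with CAMP and 0.20 for NGP with S100A9.

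**Figure D5:**
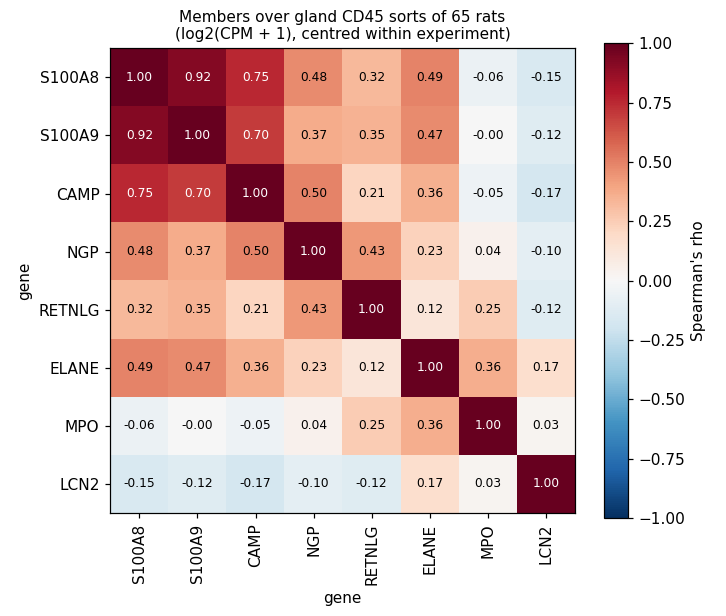
Spearman's rho between the members over the 65 gland rats (48 for pairs with MPO), on log2(CPM + 1) centred within each experiment. S100A8, S100A9 and CAMP form the block of high values, at 0.70 to 0.92, and the LCN2 row lies near 0.

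Of 10520 genes with a mean of at least 1 CPM, those whose pattern over the rats was most like the mean of the members were MCEMP1 (rho 0.72) and MMP8, the neutrophil collagenase (0.71). They were followed by KLRD1 (0.61), PROK2 (0.61), GNGT2 (0.60), KLRI2 (0.59), PGLYRP1 (0.57), KLRE1 (0.56), RGS1 (0.56) and CKLF (0.55). KLRD1, KLRI2 and KLRE1 are killer cell lectin-like receptor genes of natural killer cells. The median over all ranked genes was −0.06. Without the young ACI rats of day 0, 6 of these 10 stayed among the first 10 genes, with rho of 0.69 for CKLF, 0.69 for MCEMP1 and 0.64 for MMP8, while PROK2 (0.53), PGLYRP1 (0.50), KLRE1 (0.57) and RGS1 (0.43) did not. Members followed the mean of the other members with rho of 0.80 (S100A8), 0.77 (S100A9), 0.65 (CAMP), 0.50 (ELANE), 0.47 (NGP), 0.34 (RETNLG), 0.08 (MPO) and −0.10 (LCN2). Without the day 0 rats these were 0.70 (S100A8), 0.70 (S100A9), 0.52 (CAMP), 0.49 (ELANE), 0.32 (NGP), 0.24 (RETNLG), 0.23 (MPO) and −0.02 (LCN2).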

How the data were processed

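Bulk RNA of cells sorted by CD24, CD29, CD31 and CD45 was sequenced after SMARTer amplification. Per the labels and the study's methods, the authors aligned reads with STAR 2.5.1b to rn6, counted them without strand by HTSeq on UCSC refGene, and deposited a signal per gene, read counts divided by DESeq2 1.30.1 size factors within each table. Every value above 0 was a whole multiple of the smallest within 0.001 (100% in each CD45 library), which gave the reads and CPM back. Rows that name no gene, left out here, held 30.7 to 42.5% of the reads in the CD45 libraries of the adult and estradiol experiments. The single-cell files hold raw UMI counts deposited per cell (Cell Ranger 4.0.0 for sorted cells and 7.0.0 for whole glands), already filtered by the authors on genes and mitochondrial share and, for sorted cells, on Ptprc and keratin. No doublet calls were made.

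The 8 members, their gene lists and the comparisons were chosen with earlier results of these data known. Within a table, log2(normalized count + 1) of genes summing to 10 or more over the table was fitted with limma 3.58.1 (trend and robust), all groups of the table sharing the spread, and p-values were adjusted by Benjamini-Hochberg over all genes of a comparison with a threshold of 0.05. Fold changes within a table are on that scale and understate changes of low genes, as the pseudocount damps them. Tumor and gland CD45 tables were compared on recovered reads scaled together by TMM, since they were normalized separately. That fit was on log2(CPM + 1), which damps low genes more. There, the rats were the same by the labels, and deviations of the paired libraries correlated at −0.04 to 0.12. In all 21 comparisons were tested. Alternatives were edgeR 4.0.16 quasi-likelihood and DESeq2 1.42.0 on recovered reads, other pseudocounts (0.5 and 10), no filter, TMM, the compared groups alone, the libraries of rat A4-15 as separate samples, a rat block, and each rat left out. A change of sign is counted only where the value of the reported fit lay more than 1 SE from 0. Added after the data were seen were a fit of the labelled SD responders apart and correlations without the young ACI rats of day 0. Groups of rats are separate animals by the labels. Rat LD2LR was kept as vehicle and LD9R as day 7, although other labels of these rats differ. Scripts were tested on simulated data.

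Named genes were all 8 members, list genes with adjusted p of 0.05 or less (at most the 4 with the largest change per list and comparison), and the 10 genes most like the mean of the members. Single cells with at least 3 keratin UMIs and no PTPRC UMI were the keratin gate.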

Additional observations from a re-analysis of the deposited data

Results flagged for a closer look

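Of 51 combinations of a member and a group of 4 rats, 3 had a rat far from the others. The nominal rate by chance is about 1 in 20, which was not checked for counts this low. Where the other rats are at 0, any value above 0 stands far from them by this rule. All 3 concern ELANE, at values of a few reads. ELANE was 16.6 normalized counts in the young SD vehicle rat C7N and 0 in the other 3 rats. It was 10.97 in the vehicle rat A4-8 without E2 and 0 in the other 3 rats, and the same rat had the highest S100A8 and S100A9 of its group (407 and 1406). In the E2 tumor-bearing vehicle group, A4-27 had 13.5, where the nearest other rat had 4.91, and it also had the highest S100A9 (2092) of that group.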

How the results depend on the processing

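Of 2178 values of the members under alternatives, 2155 kept their direction (or had a value within 1 SE of 0 in the reported fit) and their side of the threshold, 18 passed it only under the alternative, and 5 that lay more than 1 SE from 0 in the reported fit changed sign. Another 158 values changed sign where the reported value lay within 1 SE of 0, and these are not counted as changes. The number of members that passed was 2 over the 21 comparisons in the reported limma fits and with edgeR, and 7 with DESeq2. It was 4 over 16 comparisons with the compared groups alone. Over 19 comparisons, those of tumor with gland left out, it was 1 with a pseudocount of 0.5 and 0 with 10, TMM or no filter. Of the 163 member tests, 17 had an unadjusted p under 0.05. Over all genes this held for 141 of 13618 (parous rats, TGFBRi against vehicle) to 4559 of 12190 (TGFBRi rats, tumor against gland). Nothing is read from these counts about the members. In adult virgin rats DESeq2 called 3 members (CAMP and S100A8 as lower with TGFBRi, MPO as higher) where limma called 0. The log2 difference of CAMP was −1.21 in limma with reads scaled by TMM, on log2(CPM + 1), and −6.05 with DESeq2. In TGFBRi rats, E2 against no E2, the count was 0, and it was 4 with the compared groups alone and 1 each with a pseudocount of 0.5, with DESeq2 and with the A4-15 libraries as separate samples (ELANE in each). Between tumor-bearing TGFBRi and vehicle rats with E2, DESeq2 called 1, and leaving out 1 rat gave 0 to 7: without A4-9, with A4-14 as the lone rat assumed to vary like the other groups, all 7 passed, among 1776 genes. The log2 differences of 4 members changed sign without A4-14, to values within 1 SE of 0, and over the rats left out they ran from −1.02 to 6.12 for NGP, −0.49 to 6.71 for S100A8, −0.37 to 6.40 for S100A9 and −0.21 to 6.58 for CAMP. LCN2 at day 7 in young ACI rats differed by −0.83, and by −1.57 to 0.052 with 1 rat left out, the latter without LD9R. The fall of LCN2 between gland and tumor passed in every alternative run, with log2 values of −4.42 to −3.91 in vehicle and −5.40 to −3.91 in TGFBRi rats when 1 library was left out, and −4.13 and −4.61 when a replicate block for the rat was added, which changed no other call of a member. Over all genes, calls at day 0 in young ACI rats numbered 420, with 29 for the compared groups alone, 192 with edgeR, 1031 with DESeq2 and 78 to 1044 with 1 rat left out. E2 in TGFBRi rats gave 752 calls, 1147 with the compared groups alone, 1512 with DESeq2 and 153 to 1042 with 1 rat left out. E2 in vehicle rats gave 43, with 0 by edgeR, 251 by DESeq2, 75 with the compared groups alone and 4 to 179 with 1 rat left out. The tumor comparisons gave 1349 and 3056, with 639 and 2113 by edgeR and 682 to 1546 and 1994 to 3052 with 1 library left out. The other 17 comparisons gave 0 to 7 calls, 0 to 8 with edgeR, 0 to 209 with DESeq2 and 0 to 1776 with 1 rat left out. The 1776 came without A4-9, from 3, and in adult virgin rats 3 became 34 without the TGFBRi rat D_N2R. DESeq2 gave no adjusted p for 26 member values, which are not counted. The cause of these changes was not tested. Groups of 2 to 4 rats, and medians of NGP, MPO and ELANE near the limit of detection, bound what could be detected.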
